A study of Mus musculus with 6 samples.

Results

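The genes that the day 4 mouse lens expresses were ranked from 3 bead arrays of lens RNA of Tdrd7 heterozygous mice. A gene was counted as detected when a probe named for it had a deposited detection p-value under 0.05 on all 3 arrays. It was then represented by its brightest such probe, and genes were ordered by the mean raw signal of that probe. By this rule 7314 of 19057 genes named by a probe, or 38.4%, were detected. On none of the 3 arrays did a probe of a further 9135 genes, or 47.9%, reach detection. The remaining genes were detected on 1 array (1725 genes) or on 2 arrays (883 genes).

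The study set lenses of Tdrd7 null mice beside those of heterozygous mice, on 6 arrays in all. The heterozygous mice carried 1 altered Tdrd7 copy on a mixed background of C57BL/6J and C3A.Blia and were taken at postnatal day 4, with no treatment named. They served as the controls, and no array of an unaltered mouse was analysed here, so what follows describes the heterozygous lens and makes no comparison of genotypes. The labels do not say whether an array holds 1 mouse or a pool, nor whether the 3 arrays come from separate mice. The arrays are called a, b and c, in the order of the deposited table. Sex-linked probes differed between them: Xist, the RNA of the inactive X, measured 631, 246 and 360 and was detected on all 3, while the Y-linked Eif2s3y measured 76, 365 and 59 and was detected on array b alone. These values differ more than most genes did, and array b held signal for both. A second Eif2s3y probe read 79.7, 70.3 and 74.5 on arrays a, b and c and was detected on none. Whether RNA of several mice was pooled was not tested, so what an SD below measures, mice or pools, is not known.

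The lens is a clear, vessel-free tissue of a single cell lineage. A sheet of epithelial cells covers its front. At the rim these cells leave the cell cycle and stretch into fiber cells, which fill themselves with crystallins, the soluble proteins that give the lens its refractive index, and later break down their nuclei and mitochondria. Alpha crystallins are small heat shock proteins that also act as chaperones, while beta and gamma crystallins share a fold of their own. Tdrd7 is a Tudor domain protein of RNA granules in fiber cells, and its loss causes cataract in mice and humans.

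Probes for the labelled tissue were among the brightest of the arrays. Crybb3 measured 38125, 48575 and 47491 on arrays a, b and c, Crygs 40756, 44338 and 47592, Cryaa 39443, 37739 and 36220, and Mip, the water channel of fiber cells, 36194, 40660 and 39347. All 4 markers of the label stood among the 12 highest means. The arrays resembled each other closely. Pearson's r of log2 signal was computed over the 12009 probes detected on all 3 arrays. It was 0.995 for a with b, 0.992 for a with c and 0.993 for b with c, and probes share their base composition and their background across arrays. The share of the 45281 probes that passed detection ran from 30.7% to 32.9% on single arrays, and the median signal from 70.3 to 76.6. Signal on a bead array depends on the probe as well as on the transcript, so the order below is one of signals. It is not an order of transcript amounts, and no signal of one gene was divided by that of another.

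Signals ran from a mean of 50387 for Crybb2 down to 82.2 for Ssbp4. Only 24 genes, or 0.126% of named genes, had a mean of 20000 or more. Together with a further 107 genes between 5000 and 20000 they made 131 genes, or 0.687% of named genes. The first tier held 18.2% of the summed signal of all detected genes and the second 21.3%. Between 1000 and 5000 lay 624 genes with 27.2% of the summed signal, which brought the genes of 1000 or more to 755, or 3.96% of named genes. The lower tiers held most genes: 1574 lay between 300 and 1000, and 4985 below 300, with 17.4% and 15.9% of the summed signal. These sums include array background, which was not subtracted. Genes detected on no array had a median signal of 70.9, so background weighs most in the share of the tier below 300. Ppia (21129 ± 395, SD, n = 3) was the last gene inside the highest tier and Tuba1b (19818 ± 562) the first outside it. Rps10 (5035 ± 23.5) and Atp5j (4985 ± 533) flanked the limit of 5000. Mrpl52 (1001 ± 118) and Tmed10 (998 ± 118) flanked 1000, and Xpa (300.03 ± 24.9) and Ddx41 (299.9 ± 8.06) flanked 300. At 5000, 1000 and 300 the genes on either side of the limit differed by less than the larger of their SDs, so a tier is a range and not a class.

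**Figure D1:**
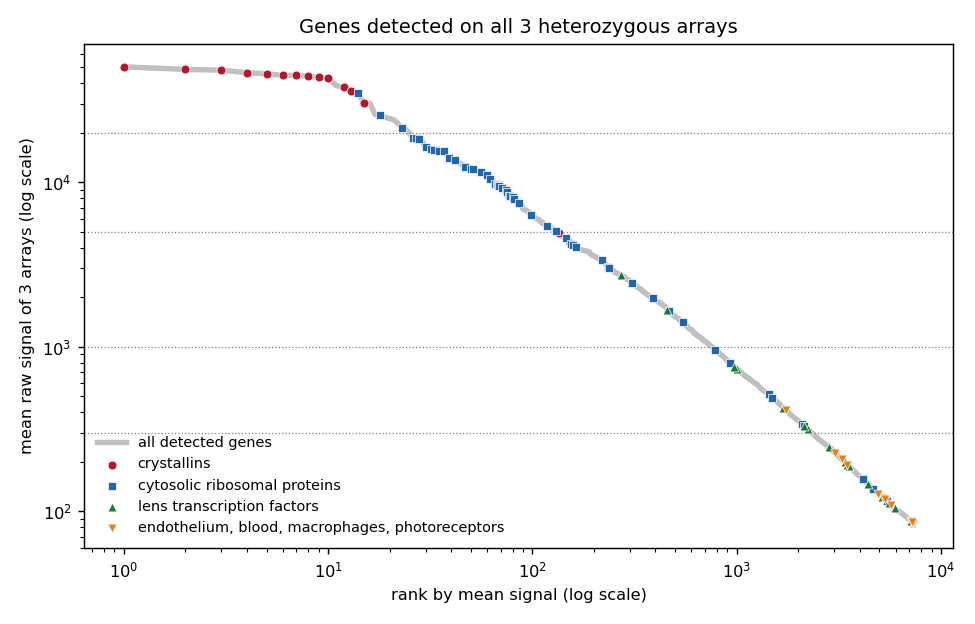
Mean raw signal of the 3 heterozygous arrays against rank for the 7314 detected genes, both axes logarithmic, with dotted lines at the tier limits of 300, 1000, 5000 and 20000. Crystallins (red circles) take 13 of the 24 places at 20000 or more, ribosomal protein genes (blue squares) crowd the tier below, and lens transcription factors (green triangles) and markers of vessels, blood, macrophages and photoreceptors (orange triangles) lie further down.

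The plot of signal against rank shows a plateau formed by crystallins, then a fall that is close to straight on these axes. Of the 24 genes at 20000 or more, 13 were crystallins and 3 were cytosolic ribosomal protein genes. The tier of 5000 to 20000 held 1 crystallin, 31 ribosomal protein genes and 13 genes of complex I, cytochrome c oxidase or the ATP synthase. From there on crystallins were few: 2 lay between 1000 and 5000 and none below. Zinc finger genes named Zfp lay mostly in the lowest tier, with 120 of their 128 detected members below 300. Of all 7314 detected genes 4985, or 68.2%, lay there too.

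All 16 alpha, beta and gamma crystallins with a named probe were detected, and their lowest mean was that of Cryge, 4306. Crybb2 measured 45762, 52525 and 52874 on arrays a, b and c. Crybb1 measured 50242, 47859 and 46302, and Cryba4 43251, 45528 and 48276. All 6 beta crystallins, which also include Cryba1 (43486 ± 2589), Cryba2 (43104 ± 7024) and Crybb3 (44730 ± 5746), had means over 20000. Their order within the family was not resolved: Crybb1 was the brightest of the 3 just listed on array a, and Crybb2 on arrays b and c.

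Gamma crystallins are the main soluble proteins of the dense lens core. Crygd measured 43493, 51571 and 50976, Crygc 45784, 48289 and 45293, and Cryga 39248, 49374 and 45666. Crygs (44228 ± 3420), Crygn (35957 ± 699) and Crygb (30268 ± 1125) completed the 6 gamma crystallins over 20000. Crygf measured 4652, 5932 and 4253, and Cryge 4232, 4789 and 3898, so both had means in the tier of 1000 to 5000. Cryge, Crygf and Crygd are near-identical copies, and a probe may also bind its sister transcripts.

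Of the alpha crystallins, Cryaa had a mean of 37801 ± 1613. Cryab, which is also made in muscle and heart, measured 14847, 15794 and 16343 (15661 ± 757). Relatives that carry the crystallin name or fold but serve as enzymes or cytoskeletal proteins elsewhere had means below 1000 or were not detected. Of these 7 genes Cryzl1 (394 ± 52.1) and Cryz (211 ± 24.1), which resemble quinone reductases, were detected, and Crybg1, Crybg2, Crybg3, Cryl1 and Crym were detected on none of the arrays. Summed over the 16 lens crystallins, the signal made up 11.8%, 12.5% and 13.1% of that of all detected genes on arrays a, b and c (12.5% ± 0.682). The highest signals of the 3 arrays were 50242, 52525 and 52874, and how near they come to the top of the scanner's range was not tested.

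The start regions of crystallin genes are shown because this family fills the top of the ranking. The bases from -50 to +10 around the annotated start are given for the 6 gamma crystallin genes of chromosome 1, of which Cryga to Cryge lie side by side on the minus strand and Crygf lies apart on the plus strand, and then for Cryaa, Crybb1, Crygs and Crybb2. They are from RefSeq for assembly GRCm38.p6, 5′ to 3′ on the gene's strand, with the letters TATAAA or TATATA in capitals where they start between -45 and -15.
Cryga (chr1:65103354-65103413, minus strand): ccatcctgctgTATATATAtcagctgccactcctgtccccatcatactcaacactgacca
Crygb (chr1:65082281-65082340, minus strand): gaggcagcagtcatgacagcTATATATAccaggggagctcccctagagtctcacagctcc
Crygc (chr1:65073523-65073582, minus strand): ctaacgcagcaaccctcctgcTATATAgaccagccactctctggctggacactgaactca
Crygd (chr1:65063431-65063490, minus strand): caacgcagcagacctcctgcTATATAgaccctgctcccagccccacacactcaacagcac
Cryge (chr1:65051154-65051213, minus strand): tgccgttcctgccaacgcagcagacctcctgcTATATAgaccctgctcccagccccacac
Crygf (chr1:65926472-65926531, plus strand): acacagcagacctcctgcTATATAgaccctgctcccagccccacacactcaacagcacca
Cryaa (chr17:31677881-31677940, plus strand): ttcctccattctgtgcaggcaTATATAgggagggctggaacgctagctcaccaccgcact
Crybb1 (chr5:112255770-112255829, plus strand): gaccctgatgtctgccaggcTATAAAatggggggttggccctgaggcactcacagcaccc
Crygs (chr16:22811401-22811460, minus strand): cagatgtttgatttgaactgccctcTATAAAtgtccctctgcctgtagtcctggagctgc
Crybb2 (chr5:113070108-113070167, minus strand): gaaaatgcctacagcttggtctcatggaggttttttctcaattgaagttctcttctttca

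The TATA letters, the core promoter element bound by the TATA-binding protein, were searched on the gene's own strand, and overlapping matches counted once for a window. They were found in 11 of the 15 crystallin windows in the table (73.3%), among them all 8 gamma crystallins, Cryaa, Crybb1 and Cryba1. Over all 32851 windows of the same 300 bases the share was 3.13%. Crygd and Cryge share an unbroken run of 78 bases that holds the letters, Crygd and Crygf one of 64 and Cryge and Crygf one of 55, whereas the run shared by Crygc and Crygd is 18. Around the TATA letters Cryge and Crygf, in the third tier, thus share long runs with Crygd, in the first. Identity over the whole windows was not computed.

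The letters TGCTGA or their reverse complement TCAGCA, the core of the element that MAF proteins bind, were searched on both strands over the whole window, and cannot overlap the TATA letters. They occurred in 10 of the 15 crystallin windows (66.7%), among them 5 of 6 beta and 4 of 8 gamma crystallins, against 19.5% of all windows. Over the windows of genes named by a probe the shares were 3.55% for the TATA letters and 17.6% for the MAF letters. At least 10 CpG were present in 3 of the 15 crystallin windows (20%), against 43.5% of all windows and 60.7% of those of genes named by a probe. Of the 7 windows of the other genes at 20000 or more, 1 held the TATA letters, 3 the MAF letters and 4 at least 10 CpG. Of the 111 windows of genes at 5000 to 20000, 91.0% held at least 10 CpG, 4.50% the TATA letters and 13.5% the MAF letters. Of the 61 windows of ribosomal protein genes 93.4% held at least 10 CpG, and so did 82.6% of the windows of all detected genes and 81.1% of those below 300. Genes detected on no array had at least 10 CpG in 40.8% of 8334 windows. A match of letters is a description and does not show that a factor binds there.

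**Figure D2:**
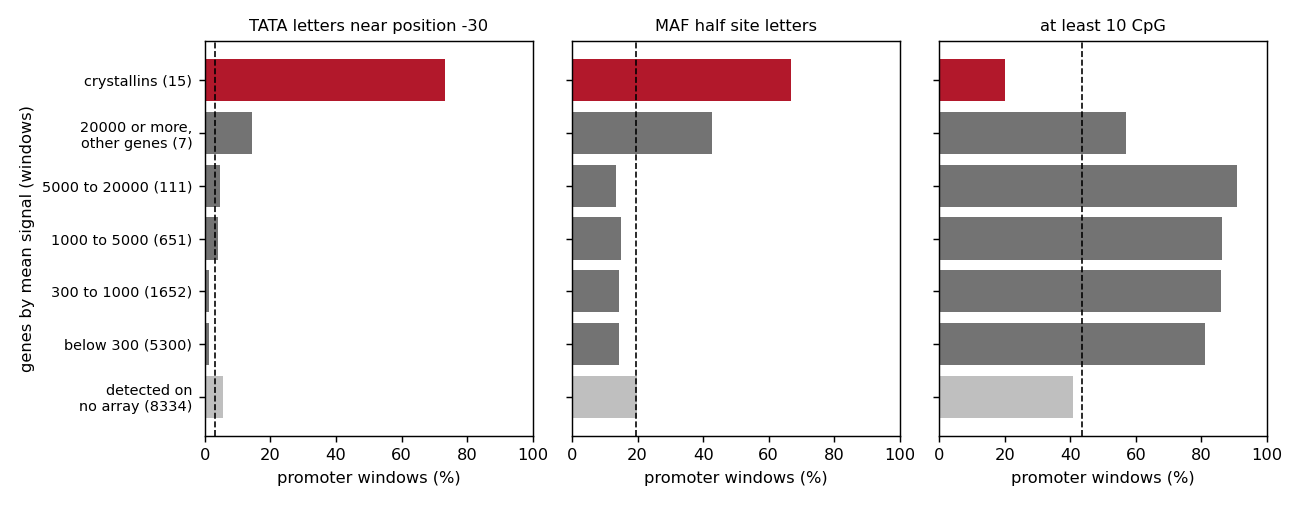
Percentage of promoter windows (250 bases before to 50 after the annotated start) that hold the TATA letters near -30, the MAF letters, or at least 10 CpG, for crystallins (red), for detected genes by signal tier (dark grey) and for genes detected on no array (light grey), with the number of windows in brackets. Dashed lines mark all windows in the table (3.13%, 19.5% and 43.5%), and the crystallins reach 73.3%, 66.7% and 20%.

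Beside the crystallins, the tier of 20000 or more held 11 genes. They were Mip, Lim2, Nupr1, Hmgn3, Ppia, Eef1a1, Ubb-ps, CYTB, Rpl41, Rplp1 and Rpl38. Lim2, a membrane protein of fiber cells, measured 25811, 24541 and 24180. Nupr1, a small stress-induced nuclear protein, measured 32032, 29478 and 29279. Hmgn3, a nucleosome-binding protein, had a mean of 22865 ± 170, and its second probe read 21243. Agreement between probes was not general: the second probe of Crybb3 read 1923 and that of Rpl38 read 549. Of the 4567 genes with several probes of which at least 1 was detected, 3355 had others that were not.

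**Figure D3:**
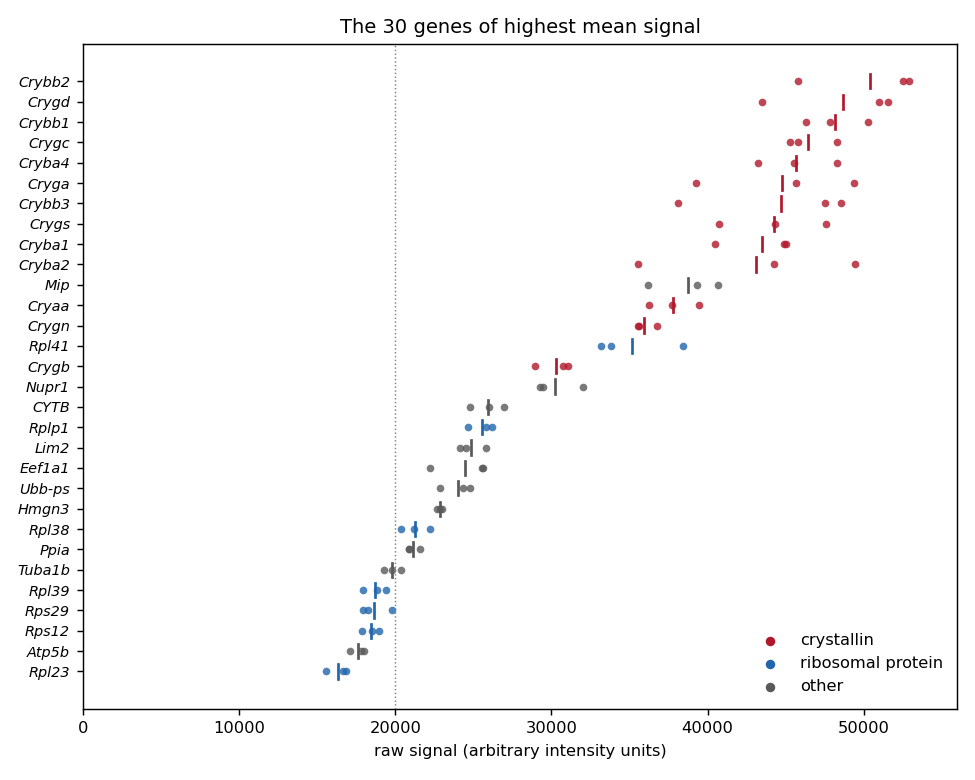
Raw signal on arrays a, b and c, with the mean, for the 30 genes of highest mean signal on a linear axis that starts at 0. The 10 highest places are crystallins, from Crybb2 (50387 ± 4009) to Cryba2 (43104 ± 7024), and the 3 arrays lie close together for most genes below them.

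Of 15 listed cytoskeletal genes of fiber cells 11 had a named probe, and all 11 of these were detected. Bfsp2, a partner in the beaded filament that is particular to fiber cells, measured 11558, 12640 and 15662. Tubb5 (11783 ± 420.6) and Tuba1a (9381 ± 487) encode tubulins, and Vim (3296 ± 131) the intermediate filament protein vimentin. The spectrin lattice beneath the fiber membrane was represented by Sptb (1805 ± 361), Sptbn1 (733 ± 149), the adaptor Ank2 (688 ± 24.1) and the actin-capping Tmod1 (460 ± 54.4). Bfsp2 was lowest on array a and highest on array c, and Sptb ran the other way.

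Among channels, transporters and adhesion proteins 12 of 14 were detected. Below Mip and Lim2 came the glucose transporter Slc2a1, with 3190, 3188 and 2027. The adhesion molecules Nrcam (1745 ± 133) and Cadm1 (1340 ± 35.3) followed. Gja1, the connexin of the epithelium, measured 1397, 1434 and 686, and array c was the low one for Gja1 as for Slc2a1. The water channels Aqp1 (356 ± 108) and Aqp5 (121 ± 8.5) had lower means. The single probe for Gja3, a connexin of fiber cells, read 65 and was detected on no array, like that for Slc2a3. Gje1, a connexin gene outside this list, measured 3811, 3820 and 3966 on arrays a, b and c.

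Of 13 genes known for their fiber cell expression, Crygn among them, 12 were detected. Tdrd7 itself measured 13045, 12473 and 13065 (12861 ± 336), the 45th highest mean. The labels do not describe the altered allele, so this signal does not show which part of the transcript is intact. Grifin, a galectin relative of the lens, had 11899 ± 768 and Birc7, an inhibitor of apoptosis, 6859 ± 800.4. Fabp5, which carries fatty acids, reached 4231 ± 408.5 and Lctl, a klotho relative, 945 ± 48.6. The protease gene Capn3 measured 1505, 1293 and 1348. Dnase2b, the lysosomal nuclease that removes DNA from fiber nuclei, measured 819, 819 and 697. Lgsn, which encodes the lens protein lengsin, was detected on arrays a and b (382 and 549) and not on c (72.8).

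RNA granule and RNA-binding genes were detected for 18 of 20, with Tdrd7 as the brightest. Pabpc1, which coats poly(A) tails, measured 6399, 4941 and 4372. Caprin2 had 1081 ± 157, Caprin1 776 ± 49.3, G3bp1 704 ± 121, the helicase Ddx6 542 ± 13.0 and Celf1 515 ± 17.3. Rbm24 lay near the limit of detection with 138, 108 and 112. Fmr1 and Dcp2 were each detected on 2 arrays.

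Lens epithelium genes were detected for 11 of 14. Dkk3 and Sfrp1 encode secreted modulators of Wnt signalling. Dkk3 measured 13369, 12564 and 13380 and Sfrp1 3809, 4277 and 4157, although the lowest of 3 Dkk3 probes read 618. Aldh1a1, a retinal dehydrogenase, had 2242 ± 256, and Pdpn, a membrane glycoprotein, measured 1140, 1259 and 725. Igfbp5 measured 1133, 1070 and 456, and the epithelial cadherin Cdh1 425, 422 and 239. In Pdpn, Igfbp5 and Cdh1 arrays a and b lay close together and c lay below both.

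Transcription factors of the lens were detected for 16 of 20. The median signal of those detected was 222, beside 181 over all detected genes, and 2 reached 1000. Prox1, which drives fiber elongation and crystallin expression, measured 2690, 2957 and 2565. Hsf4, the heat shock factor of fiber cells, measured 1605, 1620 and 1832. Hey1 (754 ± 45.2), Mafg (732 ± 102) and Meis2 (427 ± 17.7) lay between 300 and 1000, as did Zeb2 (332 ± 50.6) and Pitx3 (314 ± 8.0). Maf, the fiber cell activator of crystallin genes, had 199 ± 8.8, and Gata3 measured 182, 210 and 184. Pax6, the regulator that starts eye formation, read 96, 89 and 78 and lay close to the lowest mean of a detected gene, 82.2. Foxe3 and Sox1 were detected on 2 arrays, and Mafk and Lhx2 on none.

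The capsule is the thick basement membrane that the epithelium lays down around the lens. Its genes were detected for 16 of 18. The collagen IV chains Col4a1 (5702, 6115 and 4855) and Col4a2 (4930, 4640 and 4370) were the brightest. Sparc, a collagen-binding protein, had 3836 ± 300.2, Nid1 1786 ± 192, the perlecan gene Hspg2 1306 ± 236 and the laminin chain Lama1 753 ± 74.2. Col4a5 had 636 ± 59.5, whereas Col4a3, Col4a4 and Col4a6 had means between 231 and 264. Over all collagen types 8 of 41 genes were detected, namely these 6 chains of type IV, Col18a1 and Col5a1.

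**Figure D4:**
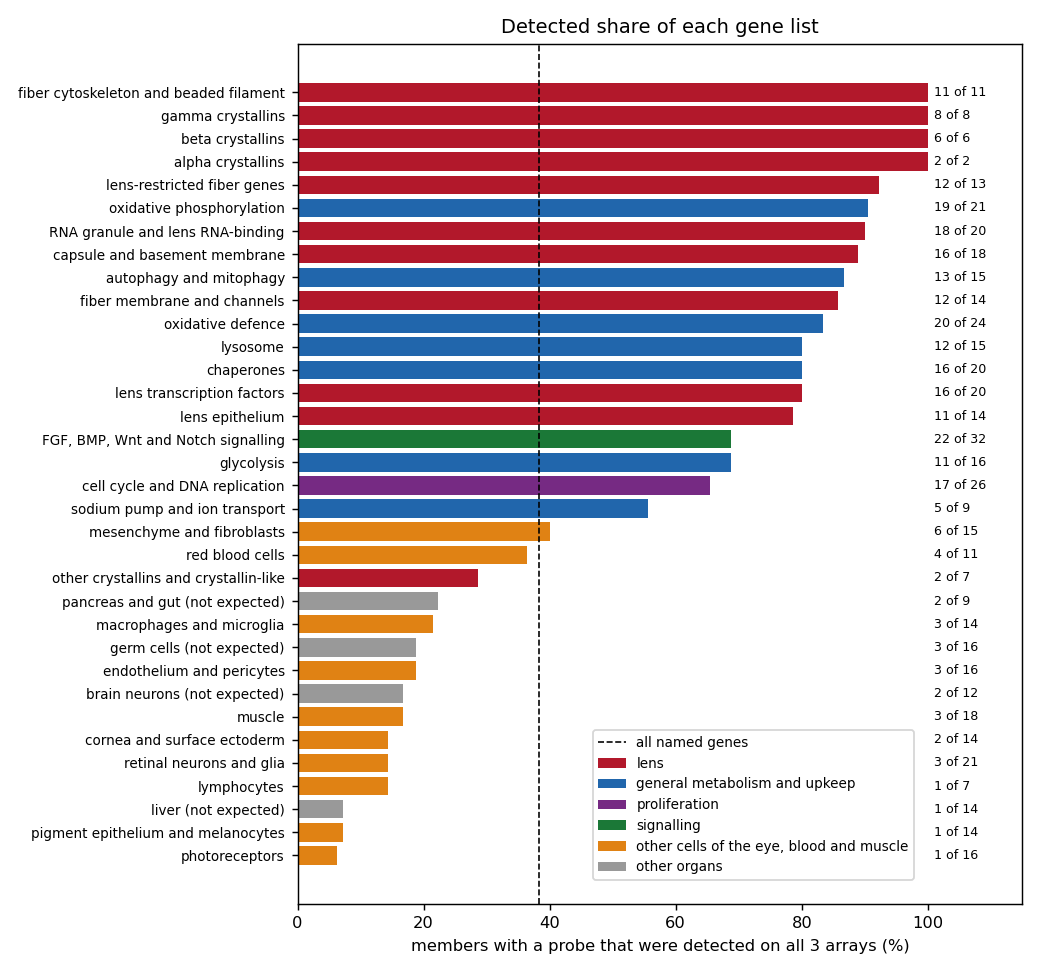
Percentage of each gene list's members with a probe that were detected on all 3 heterozygous arrays, with the counts at the right; the dashed line marks all named genes (38.4%). Lens lists other than the crystallin-like relatives (2 of 7) lie above the line at 11 of 14 or more, and lists for other cells of the eye, blood and muscle lie at or below 6 of 15.

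In the plot of detected shares most lens lists lie above the line and lists for other cells near or below it. The lists were drawn up by name for this tissue, and a high share for lens lists follows in part from that choice. Beside the background of 38.4%, the shares of general upkeep lists were also high, so a high share is not particular to lens genes.

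Genes of protein synthesis were many in the tiers below the crystallins. Of 62 cytosolic ribosomal protein genes 54 were detected, with a median signal of 8273, and Rpl41 measured 33203, 38454 and 33807. Rps29 (18654) and Rps12 (18456) were bright in the tier below. For Rps24 the brightest probe read 14141 and others between 99.3 and 258. Elongation factors were detected for 9 of 12, led by Eef1a1 (24456 ± 1952), and initiation factors for 39 of 50. Mitochondrial ribosomal proteins were detected for 71 of 76 but with a median of 488.

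Energy genes were well represented. Of 21 listed genes of oxidative phosphorylation 19 were detected, with a median of 2814. Atp5b, the catalytic subunit of the ATP synthase, measured 17094, 18000 and 17783, and Ndufa1 of complex I 11949, 13923 and 12402. All 14 genes of the ATP synthase family were detected, 32 of 35 of complex I and 20 of 25 of cytochrome c oxidase. Glycolysis, on which the vessel-free lens core is known to depend, had 11 of 16 detected. Gapdh (4948 ± 120.2), Aldoc (3424 ± 205), Pkm (2341 ± 47.9) and Tpi1 (2151 ± 271) led these listed genes. Pgam2, a phosphoglycerate mutase gene outside the list, measured 6010, 6457 and 6317 on arrays a, b and c. Ldha measured 1072, 1098 and 689, and Ldhb and the lactate transporters Slc16a1 and Slc16a3 were detected on no array.

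Protection against oxidation, which the lens needs because its proteins are not renewed, was represented by 20 of 24 genes. Gpx1 measured 11274, 12316 and 13240, and the glutathione transferase Gstp1 10490, 10171 and 12423. The peroxiredoxins Prdx2 (6827 ± 278) and Prdx1 (5461 ± 771) followed, then Hmox1 (4100 ± 552), Sod2 (2581 ± 130) and Sod1 (1911 ± 77.4). Cat, the catalase gene, had 164 ± 6.7. Of 20 chaperone genes 16 were detected, led by Dnajb1 (6023 ± 188), Hspa8 (5349 ± 475) and Hspb1 (3888 ± 565). The stress-inducible Hspa1a and Hspa1b were detected on no array.

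Genes for the clearing of organelles were detected in part. The autophagy and mitophagy list had 13 of 15, led by Gabarapl1 (2419 ± 245), Bnip3l (2241 ± 264), a mitochondrial receptor for autophagy, Gabarap (1377 ± 104) and Sqstm1 (786, 1039 and 1219). The lysosome list had 12 of 15, led by Psap (1860 ± 360). Of 43 proteasome genes 33 were detected. Fth1, the ferritin heavy chain that stores iron, was bright with a mean of 14715.

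Cell cycle genes were detected for 17 of 26 with a median of 149. The exception was Cdkn1c, the inhibitor that takes fiber cells out of the cycle, with 16102, 15485 and 15037 and the 36th highest mean. Ccnd1 (1732, 1780 and 1471) and Ccnd2 (780, 805 and 674), cyclins of the early cycle, were the next. Genes of replication and mitosis lay lower, with Mcm4 at 255 ± 49.2, Birc5 at 165 ± 26.9, and Cdk1 at 126 ± 19.7. Top2a measured 122, 117 and 92. Pcna, Ccna2, Ccnb2 and Mcm3 were detected on no array.

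Signalling genes of the FGF, BMP, Wnt and Notch pathways, which set the border between epithelium and fibers, were detected for 22 of 32. The list includes the Wnt modulators Dkk3 and Sfrp1, which had its highest means and are given above with the epithelium. The ligands Wnt7b (2991, 2491 and 2561) and Wnt7a (921 ± 42.2) came next. The BMP targets Id2 (832 ± 17.0) and Id1 (534 ± 13.3) had means between 300 and 1000. The FGF receptors Fgfr2 (881 ± 114) and Fgfr3 (326 ± 31.1) were present. Few ligand genes were detected, 2 of 22 Fgf and 4 of 19 Wnt genes, and Fgf2, Fgf9 and Dll1 were detected on no array.

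Markers of cells that surround the lens were mostly undetected. Endothelium and pericyte markers, for the vessels that wrap the lens until after birth in mice, were detected for 3 of 16 (6 when detection on 2 arrays sufficed), with Tek, Cldn5 and Esam between 109.7 and 120.3. Pecam1 and Kdr were each detected on 2 arrays and Vwf on none. Macrophage markers were detected for 3 of 14, with Csf1r, Lyz1 and Aif1 between 84.7 and 87.0, and for 0 of 14 at a detection limit of 0.01. Ptprc, Adgre1 and C1qa were detected on no array. Photoreceptor markers were detected for 1 of 16, Abca4 (411 ± 29.8), whereas Crx, Nrl, Sag and Rcvrn were detected on none. Retinal neurons and glia had 3 of 21, pigment cells 1 of 14 and muscle 3 of 18, of which Acta2 measured 995, 1032 and 707. Cornea and surface ectoderm markers were detected for 2 of 14, of which 1 had a mean of 1000 or more. These shares all lie below the background of 38.4%.

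Fibroblast markers were detected for 6 of 15, close to the background. Ogn, a small proteoglycan, measured 3345, 3354 and 3153, and its other probes read 190 and 304. Pdgfra had 358 ± 121 and Fbln1 173 ± 61.8. The defining Col1a1, Col1a2, Col3a1, Dcn and Lum were detected on no array. Red blood cell markers were detected for 4 of 11, namely Hba-a1, Hbb-bs, Hbb-bt and Slc4a1, and Alas2 was detected on none.

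Some genes of other organs also passed the rule. Of listed genes of germ cells 3 of 16 were detected, of pancreas and gut 2 of 9, of brain neurons 2 of 12 and of liver 1 of 14. The first 3 of these shares are close to those of endothelium and macrophages. Among large families the shares varied. Olfactory receptors were detected for 8 of 1078 (0.742%), vomeronasal receptors for 0 of 170, defensins for 0 of 50 and prolactin relatives for 0 of 24. Keratins were detected for 3 of 49, cytochrome P450 genes for 6 of 84, Hox genes for 2 of 38 and ion channel genes for 12 of 118. Solute carriers (103 of 316, 32.6%) and Zfp genes (128 of 328, 39.0%) lay near the share of all genes. By gene type, 7207 of 18397 protein-coding genes (39.2%) and 63 of 453 long noncoding RNAs (13.9%) were detected. A probe that is not detected does not show that the transcript is missing: Pdrg1 had a mean of 369 and failed on 1 of the 3 arrays. The median mean signal of genes detected on no array was 70.9, against 181 for detected genes.

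The 3 arrays differed little for most genes, with a median coefficient of variation of 7.66%. After quantile normalisation, the median SD of the log2 signal was 0.0900. Of genes with a mean of 1000 or more, Gja1 had the largest SD of that value (0.55), and others with a large one were Btg1 (2831, 2939 and 1551), an antiproliferative factor, the histone gene H1f2 (2732, 3243 and 4459), Pdpn, Sqstm1 and Slc2a1. Dbi, which binds acyl-CoA, measured 6873, 9323 and 5665. Gja1, Btg1, Pdpn, Slc2a1 and Dbi were lowest on array c, and H1f2 and Sqstm1 were highest there. The smallest SDs were those of Rplp1, Tcp1, Armcx2, Tmed9, Rtraf and Tuba1b. Quantile normalisation gives equal ranks equal values, so the SD of 0 for Rplp1 reflects its rank. Its raw signals were 24683, 26216 and 25835.

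Array c stood lower for several lists. The median deviation from the mean of the 3 arrays, on the quantile normalised log2 scale, was 0.41, 0.09 and -0.61 on arrays a, b and c for the 4 red blood cell genes. Hba-a1 measured 293, 208 and 119, and Hbb-bs 280, 272 and 130. For epithelium genes the medians were 0.09, 0.03 and -0.13, and 8 of 11 were lowest on array c. For capsule genes they were 0.12, -0.00 and -0.11, with 10 of 16 lowest on c. Cell cycle genes had 0.08, 0.07 and -0.13, with 14 of 17 lowest on c. General lists moved likewise: glycolysis genes had 0.13, 0.00 and -0.11, with 7 of 11 lowest on c, and lysosome genes 0.01, 0.06 and -0.08, with 7 of 12.

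Over all detected genes 2648 of 7314 were lowest on array c, 2502 on a and 2164 on b, and the autophagy list ran the other way with -0.06, -0.01 and 0.12. Of the 6 beta crystallins 3 were lowest on a, 1 on b and 2 on c, with medians of -0.03, 0.01 and 0.03. Of the 8 gamma crystallins 4 were lowest on c and 2 each on a and b, with medians of 0.01, 0.04 and -0.05. With arrays scaled to a common median instead, the gamma crystallin medians were -0.08, 0.02 and 0.05 on arrays a, b and c. The beta crystallin medians were then -0.15, 0.005 and 0.15. Which array was lowest for gamma crystallins thus depended on the scale. In whole lenses, fewer cells of a type and less RNA per cell cannot be told apart. The low medians on array c were thus not limited to blood, epithelium, capsule and cell cycle genes, and the part of the blood signal in the other lists was not tested.

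**Figure D5:**
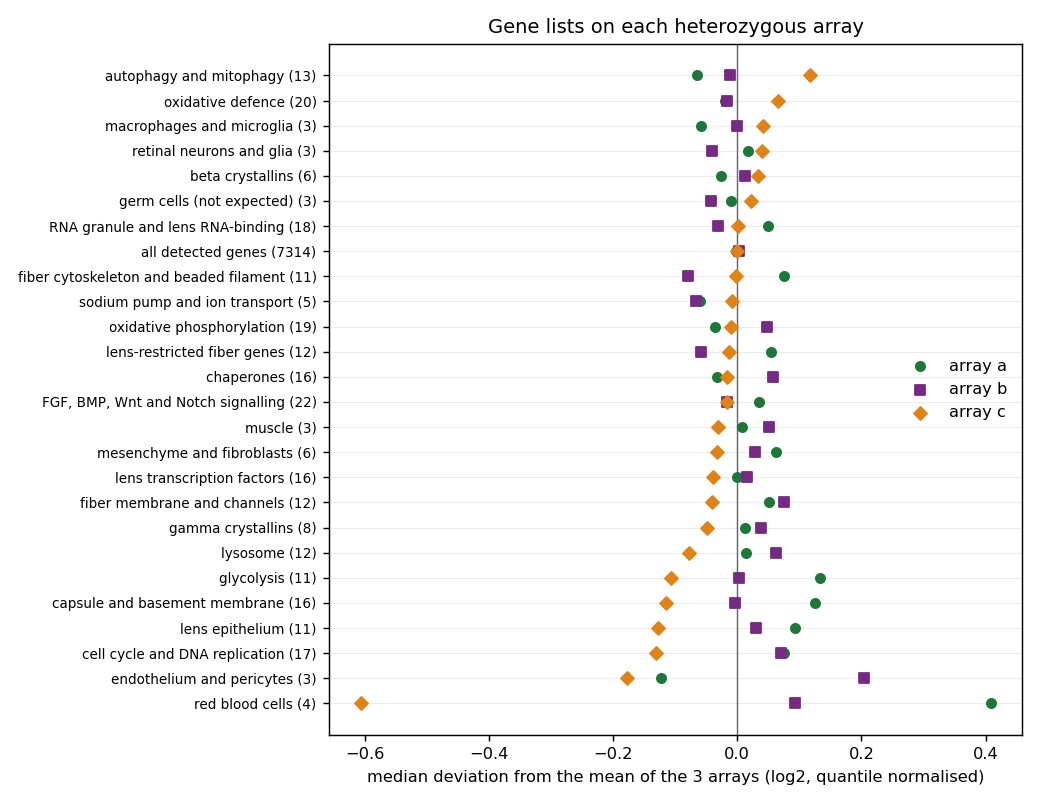
Median deviation of each gene list from the mean of the 3 arrays (log2 of quantile normalised signal) on array a (green circles), b (purple squares) and c (orange diamonds), with the number of detected genes in brackets. Red blood cell genes spread the most, from 0.41 on a to -0.61 on c, while all detected genes lie near 0 on each array.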

How the data were processed

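The deposited raw table holds a linear intensity for every probe on each array and a detection p-value beside it, per the file headers. From the values, arrays were not normalised to each other. Which scanner software and background treatment were used is not given in the sources used here. RNA was purified on columns with DNase and labelled as biotin cRNA on Illumina bead arrays, per the labels' protocols. The authors' normalised intensity table served only as an alternative. Only the 3 heterozygous columns were used.

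Gene symbols came from the platform's annotation, which gives 1 symbol for 34885 of the 45281 probes, several for 18 and none for 10378; only probes with 1 symbol entered gene counts. A gene was detected at a p-value under 0.05 on all 3 arrays and represented by its brightest qualifying probe, without background subtraction. Values are raw signals ± SD (n = 3). Array spread used log2 of quantile normalised signal. Promoter windows are RefSeq's for GRCm38.p6 and were matched by symbol.

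No test was run. The 36 gene lists and 34 families were chosen with earlier results of these data known. Genes named are the 30 brightest, up to 6 bright and 4 undetected members of each list, up to 4 of each family, the 12 most and 6 least variable genes at 1000 or more, those at tier limits, and Tdrd7; a few others were chosen after their values were seen. The ranking was tested on simulated data, in which 200 of 200 planted genes returned to their tier and 4 others were called. The planted levels lay well inside the tiers and their noise was below the spread of the real arrays. The simulation therefore checks the steps only and does not measure how firmly real genes near a limit are placed. Alternatives were a detection limit of 0.01, detection on fewer arrays, median scaling, limma's neqc with an offset of 16, the authors' table, other probe rules and leaving out an array. Python 3.11.15, pandas 2.3.3, numpy 2.4.6, R 4.3.3 and limma 3.58.1 were used. The number of arrays limits the precision.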

Additional observations from a re-analysis of the deposited data

How the results depend on the processing

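The crystallin share of the summed signal, 12.5%, became 13.6% with neqc and 13.4% with the mean of a gene's detected probes. The median SD of log2 signal, 0.0900, became 0.136 with neqc. Leaving out 1 array at a time gave 7516 to 7692 detected genes, 9571 to 9862 genes detected on no array, a crystallin share of 12.1% to 12.8% and a median SD of 0.0637 to 0.0783. Counts of detected list members were recomputed 360 times and moved by more than 1.5 times in 9, in short lists such as macrophages, of which 0 members passed a detection limit of 0.01, and endothelium, of which 6 passed on at least 2 arrays. Median scaling, quantile normalisation, neqc, the authors' table and the mean of a gene's detected probes kept the deposited detection p-values. Counts could not change under these settings, so only the other alternatives put them to a check. Of 257 recomputed spreads between arrays 242 moved by less than the members' median SD. Each spread was taken after quantile normalisation and from the brightest probe. Median scaling, quantile normalised input and the mean of detected probes could therefore hardly move it, and their recomputed spreads are among the 257. The cause of these shifts was not tested. Of the 12 most variable genes, 11 were shared under median scaling and 12 under neqc. Because neqc also includes quantile normalisation, its result is not an independent check for genes as bright as these. No paired analysis was possible because no groups were compared, and the raw columns carry no replicate number of the labels. For genes close to the lowest detected mean of 82.2, signal over background limits what can be read.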

Other observations

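Bright signals also came from probes, detected on all 3 arrays, to which the platform annotation gives no gene symbol or several. Of these, 10 had a mean of 20000 or more, 100 of 5000 or more and 234 of 1000 or more, and the highest mean was 36502. They entered no gene count.

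A few genes known from other organs had a mean above 300. Cela1, a pancreatic elastase, measured 2440, 2935 and 3106 on arrays a, b and c, and its second probe read 67 and was not detected. Gcg, the glucagon gene, measured 1162, 1154 and 871 with its single probe, whereas Ins2, Cpa1 and Vil1 were detected on no array. Abca4, the photoreceptor transporter, measured 389, 398 and 445, and its other probes read 291, 71 and 57.

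Pdrg1, which encodes a small chaperone-like protein, measured 648, 381 and 77 and was detected on arrays a and b, the layout also seen for Lgsn.

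Other Y-linked genes, Kdm5d and Uty, were detected on no array, and the labels used here give no sex.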
